A study of Mus musculus with 9 samples.

Results

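The cathepsins other than Ctss were examined in cells cultured from mouse subcutaneous fat. The 10 genes were Ctsa, Ctsb, Ctsc, Ctsd, Ctsf, Ctsh, Ctsk, Ctsl, Ctso and Ctsz, chosen by name out of 19938 genes to which the array annotation gives at least 1 row alone. Each of the 10 had 1 such row. A row is a transcript cluster, a set of probes along 1 transcribed region that the array summarises in 1 value. The cells were the stromal vascular fraction (SVF), which is what remains of fat tissue after digestion and removal of the adipocytes. They came from C57BL6/J mice of 10 weeks and were grown in minimal medium with no inducing factor, in all groups alike. On day 28 the spontaneously beating colonies were picked by hand and pooled as the beating group (n = 4), and the cells left in the dish formed the non-beating group (n = 4). The colonies of a beating sample came from several dishes of the same SVF lot. Per the methods, picked colonies went into the buffer of a NucleoSpin RNA XS kit, and RNA of unselected cells was extracted with an ISOSPIN kit. Effects of picking and of the kit therefore cannot be told apart from the difference between the groups. On day 14, 6 round cells were picked singly and pooled into 1 sample, amplified and read on the same array type. The methods name a kit for whole transcriptome amplification for the array samples in general. The arrays were Affymetrix Mouse Gene 1.0 ST, and all values are log2 signals, which include background. Whether the 4 replicates of a group stem from different SVF lots or mice is not given in the sources used here, so the p-values measure the spread among these samples alone, which may be technical.

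Cathepsins are proteases that work mainly in the acid interior of lysosomes, where proteins taken up from outside or delivered by autophagy are broken down. Most are cysteine proteases of the papain family, and a few use aspartate or serine in their active site. They are made as inactive precursors and are carried to the lysosome by receptors for mannose 6-phosphate or by sortilin. Those of the papain family are held in check by cystatins. Macrophages, fibroblasts and osteoclasts are known for high cathepsin content, and lysosomal proteolysis is also active in striated muscle.

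In the beating samples 6 of the 10 cathepsins were lower than in the non-beating samples and none was higher. The 6 were Ctsl, Ctsa, Ctsh, Ctsb, Ctsz and Ctsd, with log2 differences from -0.81 for Ctsd to -1.10 for Ctsl. The other 4, Ctso, Ctsk, Ctsc and Ctsf, did not pass the test, with differences from -0.07 to -0.81. The test was limma over all 33323 clusters, two-sided, and a gene was called at a Benjamini-Hochberg adjusted p under 0.05. Of all clusters, 3.34% were called lower and 2.82% higher (1114 and 940, or 1617 and 837 after centring each array on its median). Of the brightest 25% of clusters, in which 8 of the 10 cathepsins lie, 10.3% were called lower. The median difference was -0.85 over the 10 cathepsins, 0.0073 over all clusters and -0.10 over the brightest 25%. For 8 of the 10, all 4 beating values lay below all 4 non-beating values, as they did for 8.24% of all clusters.

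**Figure D1:**
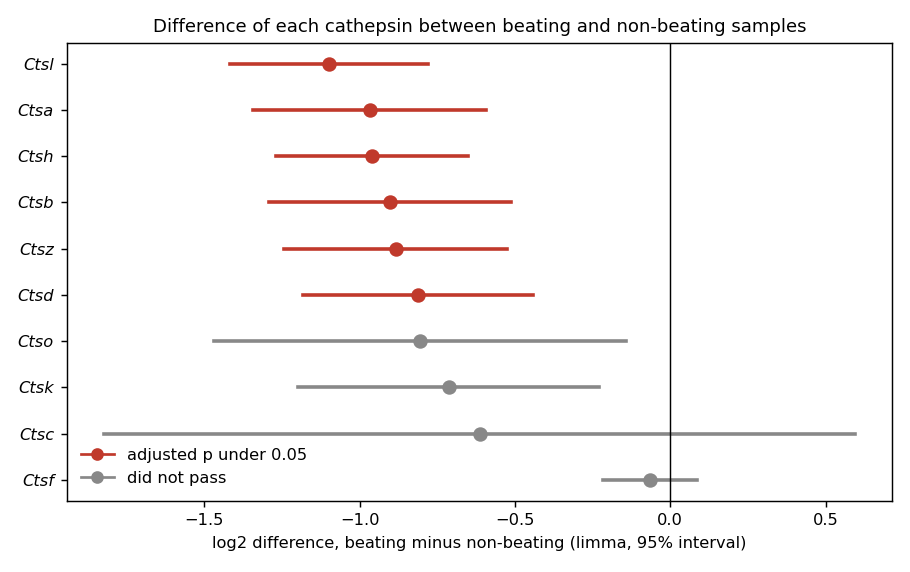
Difference of each cathepsin between 4 beating and 4 non-beating samples on the log2 scale (horizontal axis), with the 95% interval of limma's fit. Red marks the 6 genes with an adjusted p under 0.05. All 10 estimates lie below 0, and the intervals of Ctsc and Ctsf include 0.

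The members that were lower together include genes known as targets of TFEB and its relatives, transcription factors of lysosomal genes that bind the letters CACGTG. Promoter sequences from RefSeq (GRCm38.p6), reaching from 250 bases before to 50 after a start site, could be matched to 8 of the 10 cathepsins. The motif CACGTG, which reads the same on both strands, was found for 4 of these 8, for 19 of 56 genes of the lysosomal lists described further on, and in 7.15% of all 32851 windows, or for 8.09% of genes. The matches are shown 5′ to 3′ on the strand of the gene, with the motif in capitals, so that its flanks can be compared between genes that were called lower (Ctsa, Ctsd and Ctsl) and Ctsf, which was not.
Ctsa, chr2:164833749-164833778, plus strand, from 12 bases before the start: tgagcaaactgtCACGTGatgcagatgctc
Ctsa, chr2:164833766-164833795, plus strand, from 5 bases after the start: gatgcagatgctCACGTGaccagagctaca
Ctsd, chr7:142387908-142387937, minus strand, from 98 bases before the start: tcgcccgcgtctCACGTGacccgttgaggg
Ctsd, chr7:142388055-142388077, minus strand, from 245 bases before the start: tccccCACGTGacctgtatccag
Ctsl, chr13:64370739-64370768, minus strand, from 236 bases before the start: ggcgttagaagcCACGTGctgatctaaatt
Ctsf, chr19:4855074-4855103, plus strand, from 79 bases before the start: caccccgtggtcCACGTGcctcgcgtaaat
Ctsa has a second window, upstream of the one shown, without the motif. The Ctsl gene as annotated reaches to base 64370772, so its motif lies upstream of the start site used here but within the gene. The windows of Ctsc, Ctsk, Ctso and Ctsz held no match, and Ctsb and Ctsh had no window. A match of letters is a description and does not show that a factor binds there.

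Among the cysteine endopeptidases, which cut within protein chains, Ctsl had the largest difference of the 10 genes. Its log2 signals were 9.99, 9.86, 9.84 and 9.52 in the non-beating samples and 8.46, 8.56, 8.92 and 8.87 in the beating samples. The groups did not overlap, and the gap between the lowest non-beating and the highest beating value exceeded the range within each group. Ctsl was 2.14-fold lower in the beating samples, at 8.70 ± 0.23 against 9.80 ± 0.20 (SD, n = 4 each, limma adjusted p = 0.00406).

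Ctsb, which cuts within chains and also trims their carboxyl ends, was at 8.46, 8.87, 8.09 and 8.61 in the non-beating and at 7.47, 7.49, 7.58 and 7.89 in the beating samples. All beating values were below all non-beating values, although non-beating replicate 3 came near the highest beating value. Ctsb was 1.87-fold lower (log2 difference -0.90, standard error 0.17, limma adjusted p = 0.0214).

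Ctsk, the collagen-degrading cathepsin of osteoclasts that activated fibroblasts also make, did not pass the test. Its values were 8.07, 7.46, 7.40 and 7.004 in the non-beating samples and 6.99, 6.57, 6.76 and 6.78 in the beating samples. The groups did not overlap but nearly touched at non-beating replicate 4 and beating replicate 1. The difference was -0.71, with a 95% interval from -1.20 to -0.23 (limma adjusted p = 0.0948). Without non-beating replicate 4, the lowest of its group, the difference was -0.87 and the adjusted p 0.0498. Of the 8 osteoclast markers fixed for comparison, which include Acp5, Calcr and Dcstamp, 0 passed limma's test at either an adjusted or an unadjusted p under 0.05. Their mean levels lay between 2.33 and 4.05. Those of Acp5, Calcr and Dcstamp were below the array medians (3.08 to 3.17), so whether these transcripts changed cannot be judged. A part of osteoclasts in the Ctsk difference was not tested.

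Of the enzymes that work from chain ends, Ctsh, an aminopeptidase, was the most even within the non-beating group. Its values there were 5.57, 5.46, 5.54 and 5.69, against 4.32, 4.53, 4.98 and 4.61 in the beating samples. No beating value reached the non-beating range. Ctsh was 1.94-fold lower, at 4.61 ± 0.28 against 5.57 ± 0.10 (SD, n = 4 each, limma adjusted p = 0.00638).

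Ctsz, a carboxypeptidase also called cathepsin X, was at 7.07, 7.04, 6.66 and 6.60 in the non-beating and at 5.93, 5.84, 5.76 and 6.31 in the beating samples. The groups did not overlap, and beating replicate 4 was closest to the non-beating samples. Ctsz was 1.85-fold lower (log2 difference -0.88, standard error 0.16, limma adjusted p = 0.0165).

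Ctsc, a dipeptidyl peptidase that activates serine proteases of immune cells, varied more within the groups than between them. Its non-beating values were 4.58, 6.63, 5.37 and 6.80 and its beating values 5.16, 5.94, 4.51 and 5.31. Non-beating replicate 1 was lower than 3 of the 4 beating samples. The difference was -0.61, and its 95% interval ran from -1.82 to 0.59, which holds both lower and higher values (limma adjusted p = 0.577).

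Ctso and Ctsf are cysteine cathepsins with less well known substrates, and neither passed the test. Ctso was at 4.79, 4.33, 4.13 and 4.04 in the non-beating samples and at 2.78, 3.37, 3.92 and 4.00 in the beating samples. The groups did not overlap, but beating replicate 4 lay just under non-beating replicate 4, and the beating samples were spread over more than 1 unit. The difference was -0.81, with a 95% interval from -1.47 to -0.14 (limma adjusted p = 0.157). The beating mean of 3.52 was near the array medians (3.08 to 3.17), so this difference of signals is not a ratio of transcript amounts. Without beating replicate 1, which lay below those medians, the difference was -0.56.

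Ctsf was at 4.52, 4.38, 4.38 and 4.38 in the non-beating samples and at 4.46, 4.33, 4.25 and 4.35 in the beating samples. The groups overlapped, and non-beating replicates 2, 3 and 4 hold the same value, as do at least 3 of the 4 non-beating arrays for 2184 of the 33323 clusters. The difference was -0.07, with a 95% interval from -0.22 to 0.09 (limma adjusted p = 0.638), so that among the 10 genes Ctsf had the smallest difference and the narrowest interval. Because 3 values of a group of 4 are identical, the width of this interval does not show how precisely Ctsf was measured.

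The remaining pair is not of the papain family. Ctsd, the aspartic protease of lysosomes, was at 10.01, 10.20, 9.62 and 10.14 in the non-beating and at 9.09, 8.97, 9.13 and 9.53 in the beating samples. The highest beating value, of replicate 4, was just below the lowest non-beating value, of replicate 3. Ctsd was 1.76-fold lower, at 9.18 ± 0.24 against 9.99 ± 0.26 (SD, n = 4 each, limma adjusted p = 0.026).

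Ctsa, a serine carboxypeptidase also known as protective protein because it shields the beta-galactosidase Glb1 and the sialidase Neu1 from degradation, was at 8.61, 8.62, 8.03 and 8.30 in the non-beating samples. In the beating samples it was at 7.18, 7.37, 7.43 and 7.72, all below the non-beating range. Ctsa was 1.96-fold lower (log2 difference -0.97, standard error 0.16, limma adjusted p = 0.0137). Its partners, named here for that link and after their values had been seen, did not pass the test, with differences of -0.44 for Glb1 (limma adjusted p = 0.217) and -0.06 for Neu1 (limma adjusted p = 0.65). The means of Neu1, 3.22 in the non-beating and 3.16 in the beating samples, were near the array medians (3.08 to 3.17). Whether its transcript changed therefore cannot be judged.

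**Figure D2:**
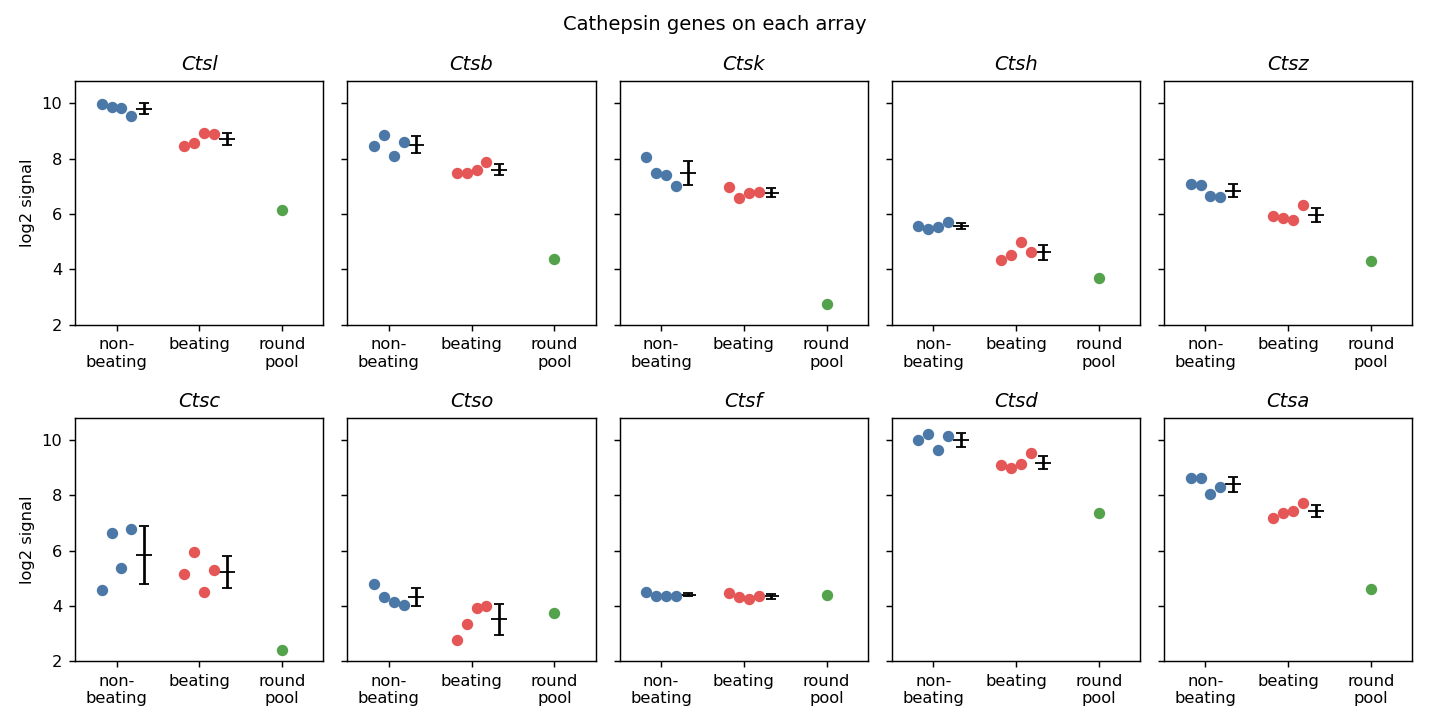
Log2 signal (vertical axis) of each cathepsin on each array. Points are the 4 non-beating arrays (blue), the 4 beating arrays (red) and the single round pool (green), and black marks give the mean and SD of 4. The 2 day 28 groups overlap in Ctsc and Ctsf and in no other panel, and the round pool is below both groups in 8 panels.

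The calls differed in how far they depended on single arrays. Those of Ctsl, Ctsh and Ctsa held whichever of the 8 arrays was left out, and the highest adjusted p was then 0.0201, 0.0259 and 0.0473. The calls of Ctsb and Ctsd were lost when any of beating replicates 1, 2 and 3 or of non-beating replicates 1, 2 and 4 was left out, with adjusted p from 0.0509 to 0.0605 for Ctsb and from 0.0597 to 0.0817 for Ctsd. That of Ctsz was lost without non-beating replicate 1 or 2 (adjusted p up to 0.0574). The count of cathepsins called lower was 3 without non-beating replicate 1 and 3 without non-beating replicate 2. It was 2, Ctsh and Ctsl, with the methods' two-sample test after adjustment, and 0 at the methods' unadjusted p under 0.0001 with their 1.5-fold prefilter. Both were run anew on the deposited values, and the counts are not the authors' own calls.

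Within the groups the cathepsins did not share 1 order of arrays. Beating replicate 4 held the highest beating value of 5 of the 10 genes and the lowest of none. Non-beating replicate 1 held the highest non-beating value of 5 genes, among them Ctsl, Ctsk and Ctso, and non-beating replicate 3 that of none. Ctsb and Ctsd, on the other hand, ran nearly in parallel. After each gene was centred on its mean over the 8 day 28 arrays, their values differed by a root mean square of 0.087 on the log2 scale. Out of 18206 other named genes Ctsd was the closest to Ctsb by this measure, and Ctsb the closest to Ctsd. Both centred profiles include the difference between the groups.

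Other genes close to a cathepsin by the same measure were, for Ctsa, Pld3 (0.083) and Emp3 (0.11), for Ctsz, Emp3 (0.11), Fuca2 (0.11) and Glmp (0.12), and, for Ctsl, Ttc28 (0.046), Avpr1a (0.090) and Cpne3 (0.11). After each other, Ctsb was closest to Mcoln2 (0.097) and Psmb9 (0.12), and Ctsd to Rtn4rl1 (0.11) and Srd5a3 (0.13). The nearest genes were Ltbr (0.11) to Ctsh, Pdpn (0.11), which encodes podoplanin, to Ctsk, Tgfbr2 (0.13), a receptor for TGF-beta, to Ctso and Ndufaf3 (0.022) to Ctsf. For Ctsc the nearest gene was Pilra, a receptor of myeloid cells, at a larger distance of 0.30. These distances depend on a gene's own spread, the root mean square of its centred values. It was 0.80 for Ctsc, 0.58 for Ctsl and 0.0745 for Ctsf, so distances of different cathepsins do not rank the matches.

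Markers of other cell types moved between the same groups. Of 16 macrophage markers, all 16 had lower means in the beating samples, and 1, Mpeg1, passed the test (log2 difference -2.43, limma adjusted p = 0.0496). The share of 1 in 16 lies between the 3.34% called lower of all clusters and the 10.3% of the brightest 25%. The call of Mpeg1 was lost when any array other than beating replicate 4 was left out (adjusted p up to 0.138). The mean over the 16 was 5.48, 6.78, 5.53 and 7.10 in non-beating replicates 1 to 4 and 3.39, 4.21, 4.48 and 5.45 in beating replicates 1 to 4. Every beating sample was thus below every non-beating sample, with a narrow gap between beating replicate 4 and non-beating replicate 1. Within the non-beating group Ctsb, Ctsc and Ctsd had their highest values in replicates 2 and 4, as the macrophage mean had. Within the beating group Ctsa, Ctsb and Ctso put the arrays in the same order as the macrophage mean, from the lowest in replicate 1 to the highest in replicate 4. Ctsk, Ctsl, Ctso and Ctsz were at their highest in non-beating replicate 1, where the macrophage mean was the lowest of its group.

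**Figure D3:**
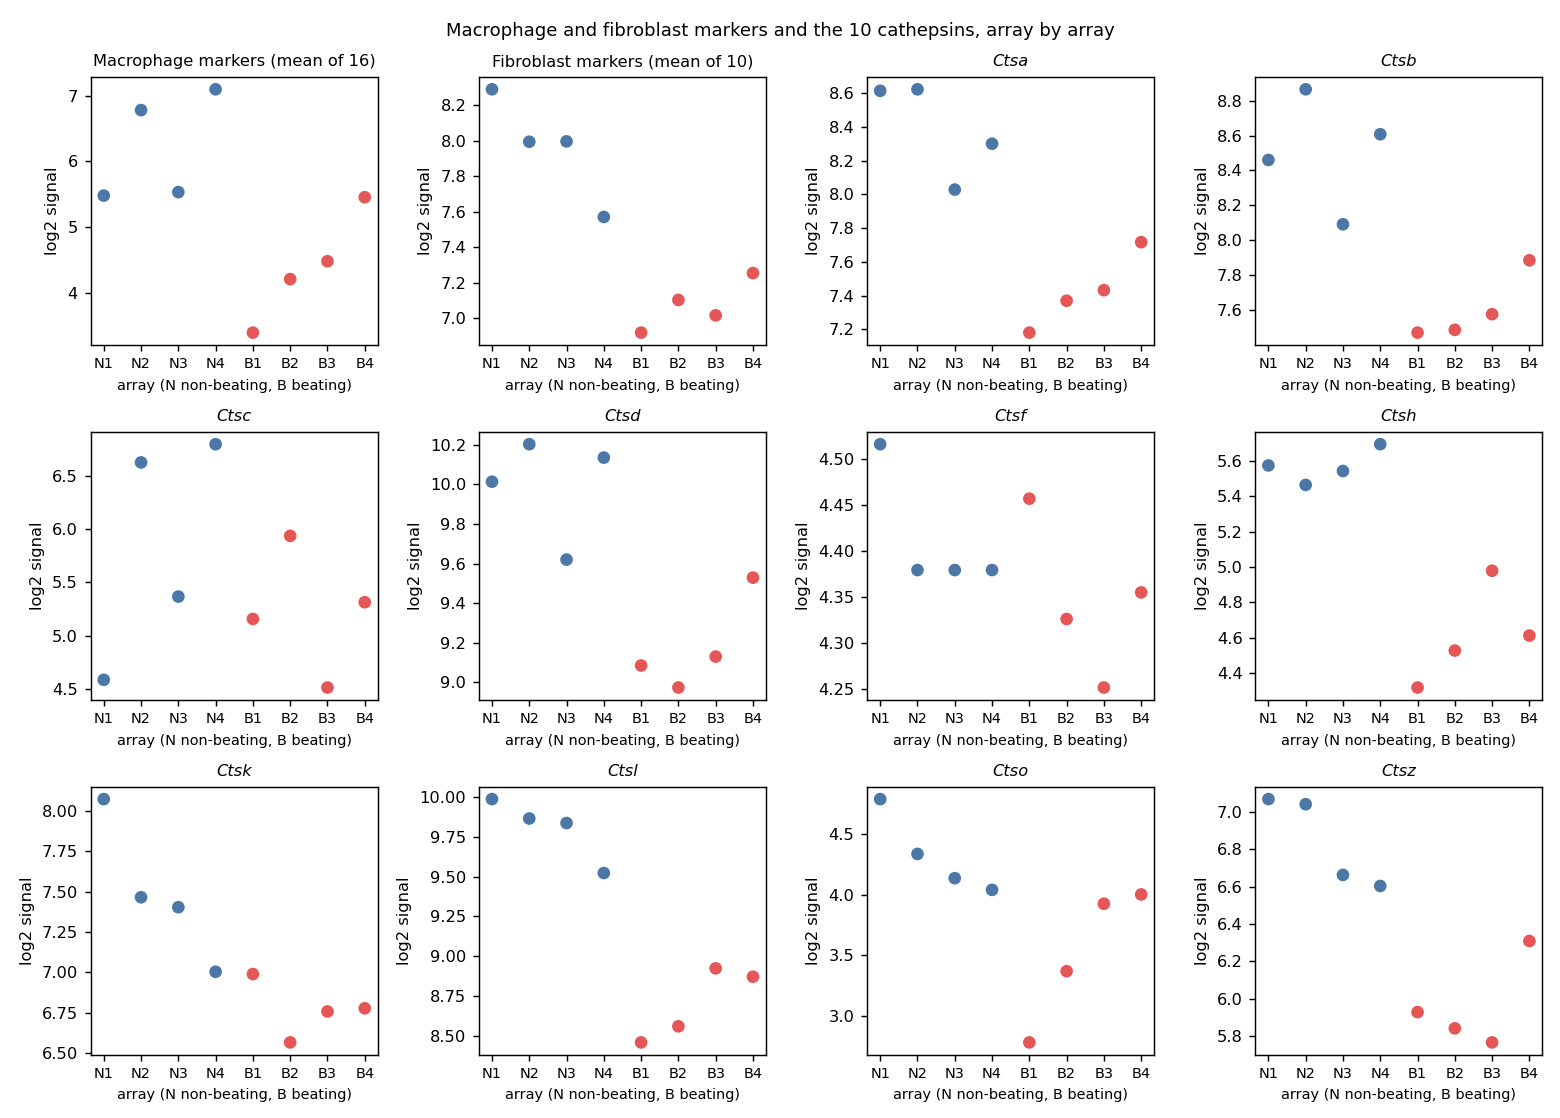
Mean log2 signal of 16 macrophage markers and of 10 fibroblast markers and log2 signal of each cathepsin on the 4 non-beating (N1 to N4, blue) and 4 beating (B1 to B4, red) arrays, with a vertical axis of its own in each panel. Within the non-beating group, the macrophage mean, Ctsb, Ctsc and Ctsd are highest in N2 and N4. Within that group the fibroblast mean, Ctsk, Ctsl, Ctso and Ctsz are highest in N1 and lowest in N4.

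Beside the 3.34% of all clusters called lower and 10.3% of the brightest 25%, 3 of 10 fibroblast markers were lower (Pdgfra, Dcn and Mfap5). The other 7 did not pass. The mean over the 10 was 8.29, 7.99, 7.996 and 7.57 in non-beating replicates 1 to 4 and 6.92, 7.10, 7.02 and 7.25 in beating replicates 1 to 4, with no overlap between the groups. Within the non-beating group it was highest in replicate 1 and lowest in replicate 4, as were Ctsk, Ctsl, Ctso and Ctsz. Within the beating group it was lowest in replicate 1, as were Ctsa, Ctsb, Ctsh, Ctsl and Ctso, whereas Ctsk was highest there. Of 10 adipocyte markers Adipoq, Cebpa and Pparg were lower, and Car3, which muscle also expresses, was higher. Calls toward higher signals made up 2.82% of all clusters. The adipocyte mean overlapped between the groups, at 4.11 to 4.50 in the non-beating and 4.03 to 4.34 in the beating samples. Calls were lost for Mfap5 without any array but beating replicates 3 and 4 (adjusted p up to 0.127), for Pdgfra without non-beating replicate 2 or 3 (up to 0.0557), for Adipoq without beating replicate 2 or 3 or non-beating replicate 3 (up to 0.0686) and for Pparg without beating replicate 3 or non-beating replicate 1, 2 or 3 (up to 0.0634). Of 10 striated muscle markers 9 were higher in the beating samples, with list means of 9.47 to 9.78 against 3.73 to 4.13. Among them Neb, Myh3, Actc1 and Ttn, all of the contractile apparatus, had log2 signal differences from 6.40 to 6.88. The non-beating means of Ttn (3.24), Myh3 (3.37) and Neb (3.52) were near the array medians, so for these genes the differences of signals are not ratios of transcript amounts. The part of macrophages, fibroblasts or another mixture of cells in the cathepsin differences was not tested, and in bulk samples fewer cells of a type and less RNA per cell cannot be told apart.

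Among the other genes of the lysosome the calls were mostly toward lower signals as well. Over 65 analysed genes of 4 lists, 16 were lower in the beating samples, 1 was higher and 48 did not pass, and the median difference was -0.34. Of all clusters 3.34% were called lower and 2.82% higher, and of the brightest 25% of clusters 10.3% were called lower. Of 28 other lysosomal hydrolases 9 were lower and none was higher, and 22 had an unadjusted p under 0.05 (over all clusters 12% lower and 8.89% higher). Arsb, a sulfatase of glycosaminoglycan breakdown, was 2.06-fold lower, at 6.19 ± 0.22 against 7.23 ± 0.17 (SD, n = 4 each, limma adjusted p = 0.00369). Gla, an alpha-galactosidase, had a log2 difference of -1.03, the carboxypeptidase Scpep1 of -0.95 and the sulfatase Ids of -0.86. With 1 array left out, the call of Arsb held throughout. That of Ids was lost without non-beating replicate 2 (adjusted p = 0.0541), that of Gla without beating replicate 2 or any non-beating array (up to 0.0859) and that of Scpep1 without beating replicates 1, 2 or 3 or non-beating replicates 2 or 3 (up to 0.0824). Lgmn, the protease legumain, which cleaves several cathepsins to their mature forms, did not pass, at -0.37 (limma adjusted p = 0.306; named for that role after its value had been seen).

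Of 15 genes of the lysosomal membrane and cofactors 2 were lower, Lamp2 by 0.46 and the cholesterol-binding protein Npc2 by 0.66 on the log2 scale, and 13 did not pass. The share of 2 in 15 is near the 10.3% called lower among the brightest 25% of clusters. Of 14 subunits of the proton pump that acidifies the lysosome 3 were lower, Atp6v1a (-0.98), Atp6v1f (-0.63) and Atp6ap2 (-0.42), and 11 did not pass. The 8 genes of enzyme sorting split in direction. Gnptab and Gnptg, subunits of the enzyme that tags hydrolases with mannose 6-phosphate, were lower (-0.72 and -0.56). Sort1, the sorting receptor sortilin, was higher by 0.80 (limma adjusted p = 0.0344). The calls of Lamp2 and Atp6v1f held whichever array was left out. That of Npc2 was lost without any array but beating replicate 4 (adjusted p up to 0.131), and that of Gnptg without non-beating replicate 3 (0.0567). Atp6v1a lost its call without beating replicate 1 or any non-beating array (up to 0.0603), Atp6ap2 without non-beating replicates 1, 2 or 4 (up to 0.0661) and Gnptab without any non-beating array (up to 0.0576). The call of Sort1 was lost when any of 6 arrays was left out (beating replicates 1 and 2 and each non-beating replicate, adjusted p up to 0.0972). Likewise the count of 16 lower genes fell to 6 without non-beating replicate 1 or 2, to 7 without non-beating replicate 3, to 8 without beating replicate 2 and to 10 without beating replicates 1 or 3 or non-beating replicate 4.

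The 6 inhibitors moved in both directions, with 2 higher, 2 lower and 2 not called, and their median (-0.05) and mean (0.53) differed in sign. Cst6, the secreted cystatin E/M that inhibits legumain and, in humans, cathepsins L and V, was 6.79-fold higher in the beating samples, at 5.45 ± 0.59 against 2.68 ± 0.25 (SD, n = 4 each, limma adjusted p = 0.00137). In the non-beating samples it was under the medians of the arrays (3.08 to 3.17), so this is a ratio of signals near background and not of transcript amounts. Serpinb1a, an inhibitor of neutrophil serine proteases, was higher by 1.84 on the log2 scale. Cstb, the intracellular cystatin B, was 1.90-fold lower, at 8.61 ± 0.17 against 9.54 ± 0.17 (SD, n = 4 each, limma adjusted p = 0.00349), and Serpinb6a was lower by 0.39. Only the call of Serpinb6a among these 4 was lost by leaving out 1 array (adjusted p up to 0.0791, without beating replicate 2 or non-beating replicates 1, 2 or 4). Cst3, the secreted cystatin C, was at 10.34 ± 0.12 and 10.56 ± 0.15 (limma adjusted p = 0.242).

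Of the 4 genes of the TFEB family (the MiT factors) none passed limma's test, and 2 had an unadjusted p under 0.05. Tfec, a member found mainly in myeloid cells, had a difference of -1.30 (limma adjusted p = 0.0818) and Mitf of -0.58 (0.0803). Tfeb was at 3.16 ± 0.07 in the non-beating group and 3.04 ± 0.15 in the beating group, and Tfe3 at 3.86 ± 0.14 and 3.77 ± 0.09 (SD, n = 4 each). Tfeb was near the array medians (3.08 to 3.17), and several arrays of both groups hold the same value for it. Whether its transcript changed therefore cannot be judged. Mitf passed once dim clusters were left out (adjusted p = 0.0468), but its other cluster gave a difference of -0.12 (adjusted p = 0.689). Tfec passed there (0.0437), with the prefilter (0.0178) and without non-beating replicate 1 (0.024).

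**Figure D4:**
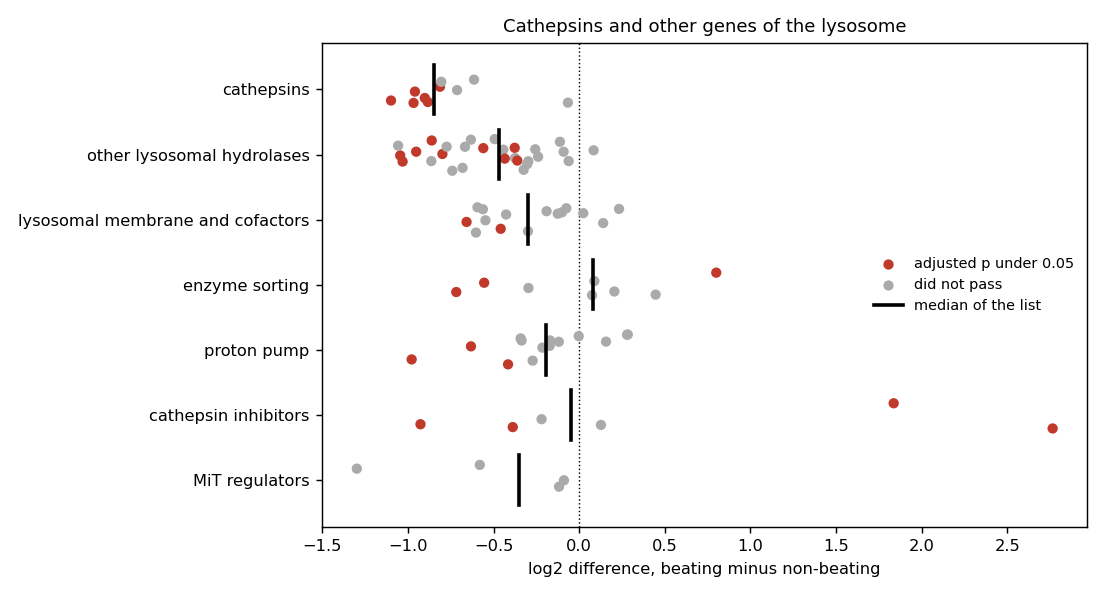
Log2 difference between beating and non-beating samples (horizontal axis) of each analysed gene in 7 lists. Red points have an adjusted p under 0.05, and black bars are list medians. The medians lie at -0.85 for the cathepsins, -0.47 for the other hydrolases, -0.30 for membrane and cofactors, 0.082 for enzyme sorting and -0.19 for the proton pump.

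The 10 analysed cathepsins of restricted tissues, which include Ctse, Ctsg, Ctsw and a group expressed in the rodent placenta (Ctsj, Ctsq, Ctsr, Cts6, Cts7 and Cts8), had no called gene. None passed limma's test, 1 had an unadjusted p under 0.05 and 7 had a positive difference. Their group means were between 1.83 and 2.71, below the array medians, so no statement on their transcripts is possible.

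In the round pool 8 of the 10 cathepsins were lower than on every day 28 array. Ctsl was at 6.14, Ctsb at 4.37 and Ctsk at 2.74, which is 3.66, 4.13 and 4.75 below their non-beating means. Ctsd was at 7.34, Ctsa at 4.62, Ctsz at 4.28, Ctsh at 3.70 and Ctsc at 2.43. On that array's own scale Ctsk and Ctsc were below its median of 3.54 and the other 8 cathepsins above it. Ctso, at 3.75, and Ctsf, at 4.41, lay within the range of the other arrays. The 8 that lay below are also the 8 cathepsins among the brightest 25% of clusters, of which 72.7% were below all 8 arrays in the round pool (24.4% of all clusters), so their share of 8 in 8 is read against that background. The median difference of the round pool from the non-beating mean was -3.03 over the cathepsins and -1.29 over the brightest 25%.

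The other lists give the setting of these values. Of the 28 hydrolases 21 were below all 8 arrays in the round pool, as were 13 of the 14 proton pump genes and all 10 fibroblast markers. The muscle markers had a mean of 9.74, within the beating range, and the macrophage markers a mean of 3.91, below all non-beating arrays. The pool is a single array of another day and of few cells, so these values stand without an error or a test.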

How the data were processed

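The deposited values are log2 signals of 33323 transcript clusters on 9 arrays. Per the methods, the authors imported raw data into BRB Array Tools, took log2 and normalised and mean-centred them. The summary method of the deposited table is not given in the sources used here. The 8 day 28 arrays had medians of 3.08 to 3.17 and the round pool of 3.54, and values were used as deposited. Clusters were named by the array annotation, updated through the gene number to GRCm38.p6 symbols. Of them 21789 carry 1 symbol, and for genes with several clusters the one with the highest mean over the 8 arrays was used.

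The day 28 groups were fitted in R 4.3.3 by lmFit and eBayes of limma 3.58.1. Tests were two-sided, with p-values adjusted after Benjamini and Hochberg across the 33323 clusters and a threshold of 0.05, and the fit was first tested on simulated data. The number of arrays limits the precision. Replicate numbers were not treated as pairs. The members and gene lists were chosen with earlier results of these data known. Named genes are the 10 members, up to 4 called genes of each list with the largest difference and the 3 genes of most similar profile (predicted genes left out). Of the listed genes 8 had no cluster of 1 symbol and were not analysed here. Alternatives covered scaling, filters, the variance model, array weights, the test of the methods, a block for replicate number, another cluster per gene and the omission of single arrays.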

Additional observations from a re-analysis of the deposited data

Results flagged for a closer look

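In the non-beating group, Ctsf on replicate 1 stood apart from the other 3 samples, at 4.52 against 4.38, and its gap to the nearest made up the whole range of the group (a ratio of 1.0, past Dixon's critical value for 4 samples). The other 3 arrays hold 1 identical value for this cluster, and beside 3 equal values any differing value gives a ratio of 1.0. Passing the critical value therefore does not show that replicate 1 is unusual. Of 20 groups of 4 examined over the 10 cathepsins the non-beating group of Ctsf was the only one past the critical value. Chance gives about 1 in 20, a rate that does not apply to a group with such ties.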

How the results depend on the processing

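The differences of all 10 cathepsins stayed negative under every alternative run. The count of 6 lower cathepsins was 6 after median centring, quantile normalization, without dim clusters, with the methods' prefilter (7976 clusters with a value 1.5-fold from their median) and with trend and robust variances, and 5 with array weights. It was 2 with the methods' two-sample test after adjustment, 0 at their unadjusted p under 0.0001 with the prefilter, and 3 to 6 without 1 array at a time. The former test gave 491 higher and 375 lower of all clusters, the latter 195 and 26 of those 7976, and leaving out 1 array gave 569 to 914 higher and 438 to 1023 lower. Of the lysosomal genes those tests called 0 and 0 higher and 5 and 0 lower, and leaving out 1 array gave 0 to 1 higher and 6 to 16 lower. The prefilter gave 9 lower. With a replicate block 2 cathepsins, 645 clusters and 10 lysosomal genes were lower. Same-numbered samples did not deviate together (r of -0.012, 0.028, -0.0094 and 0.020 over all clusters). Such correlations cannot show whether same-numbered samples share dishes or a lot, so whether the numbers pair the samples is not known. In the round pool 9 cathepsins were below all 8 arrays after median centring and 8 after quantile normalization. Differences of the round pool turned to -0.33 for Ctsf and -0.16 for Ctso from the beating mean after median centring, and to 0.27 for Ctsf from the non-beating and -0.035 for Ctso from the beating mean after quantile normalization. The causes were not tested. Signals near the array medians bound what can be said of dim genes.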
